A study of Mus musculus with 8 samples.

Results

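Il24 and Il10 are a pair of neighbouring cytokine genes of mouse chromosome 1, separated in the RefSeq gene table only by Il20, Il19 and 1 long noncoding RNA. Each was read by the only probeset that listed it, 10357553 for Il24 and 10349603 for Il10, so 2 genes of the 19938 with a single-symbol probeset are described. Both genes were chosen by their measured levels in the 4 groups, so those levels are a description and carry no test. RNA came from mouse CD4 T cells, 1 array per culture, in 4 groups of 2 biological replicates on the C57BL/6 background. Naive CD4+CD25- cells with high CD62L and low CD44 from the spleens and lymph nodes of wild-type or Tet2-/- mice were isolated by sorting and activated through CD3 and CD28. For Th1 cells the medium held IL-2 at 30 U/ml, IL-12 at 10 ng/ml and a blocking anti-IL-4 antibody at 5 µg/ml. For Th17 cells it held IL-6 at 10 ng/ml and TGF-β1 at 0.5 ng/ml, with IL-4 and interferon-γ both blocked by antibodies at 5 µg/ml each. The protocol adds IL-23 and IL-1β to some Th17 cultures, without saying whether to these. The groups are wild-type Th1, Tet2-/- Th1, wild-type Th17 and Tet2-/- Th17. The labels call the mice Tet2 deficient without describing the allele. The labels do not say whether the 2 cultures of a group came from separate animals, so p-values measure only the spread between these arrays. In Th1 cells that spread may be only that between cultures of the same animals, while the 2 cultures of each Th17 group differed in sex-linked transcripts, as given below.

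IL-10 restrains inflammation: it signals through the receptor chains Il10ra and Il10rb to the kinases Jak1 and Tyk2 and the transcription factor Stat3. Several kinds of T cell can make it, among them Th1, Th17 and type 1 regulatory (Tr1) cells. IL-24 belongs to the same cytokine family but signals mainly to epithelial cells, through pairs of the chains Il20ra, Il20rb and Il22ra1. Tet2 oxidises methylated cytosine, which in mammalian DNA lies mostly in CG dinucleotides, and the series asks how this demethylation bears on T cell cytokine expression.

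For the cytokine genes that lie between the members, the RefSeq table of GRCm38.p6 gave 1 promoter each, from 250 bases before to 50 bases after the start. They are shown because they belong to the same cluster, 5′ to 3′ on the gene's strand, with every CG in capitals. No methylation was measured on these arrays.
Il20: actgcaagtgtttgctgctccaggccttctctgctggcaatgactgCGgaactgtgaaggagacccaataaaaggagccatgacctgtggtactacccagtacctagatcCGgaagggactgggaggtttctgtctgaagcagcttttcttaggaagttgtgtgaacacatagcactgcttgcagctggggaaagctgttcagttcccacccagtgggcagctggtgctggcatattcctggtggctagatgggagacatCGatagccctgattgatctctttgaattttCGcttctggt
Il19: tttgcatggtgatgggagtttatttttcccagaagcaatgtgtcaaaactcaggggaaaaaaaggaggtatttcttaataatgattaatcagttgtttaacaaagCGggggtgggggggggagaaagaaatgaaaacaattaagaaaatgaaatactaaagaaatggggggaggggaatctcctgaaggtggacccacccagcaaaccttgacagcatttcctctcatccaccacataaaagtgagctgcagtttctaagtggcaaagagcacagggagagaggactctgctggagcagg
The Il20 promoter (chr1:130911247-130911546, minus strand) held 4 CG dinucleotides and the Il19 promoter (chr1:130940066-130940365, minus strand) held 1. Over the 32851 promoters of the table the median was 7, with quartiles of 3 and 20, and 94.6% held at least 1. The STAT motif TTCNNNGAA, read on both strands because it is its own reverse complement, occurred once in Il19 and in 8.3% of all promoters. The AP-1 motif TGANTCA, also palindromic, occurred in neither and in 7.81% of all promoters.

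The arrays had medians of 6.47 to 6.53 log2 units, and arrays of one group correlated at 0.990 to 0.994 over all genes. Of 8 T cell markers 7 were measured, with list means of 10.4 to 10.7 on every array. The 5 Th1 markers averaged 10.0 to 10.4 on Th1 and 8.21 to 8.37 on Th17 arrays, and the 5 measured Th17 markers 6.09 to 6.34 and 9.06 to 9.45. Of the Th1 markers 3 were called lower in Th17 cells in each genotype. Cxcr3 (-0.15 in wild-type and -0.16 in Tet2-/- cells) and Stat4 (-0.09 and 0.29) were not called. Ifng, a Th1 marker, was the only gene that limma called for the genotype in Th1 cells (-1.42, adjusted p = 0.00391). Markers of CD8 T, B, NK, macrophage, dendritic and mast cells had list means of 4.31 to 6.56, and 0 of them passed limma's test for the genotype in either cell type. The 6 stromal, endothelial and keratinocyte markers averaged 6.36 to 6.51 on Th1 and 6.57 to 6.79 on Th17 arrays. Among all these markers of other cells, Pecam1 was called higher in Th17 cells in both genotypes (1.32 in wild-type and 1.13 in Tet2-/- cells), and Dcn (1.01) and the mast cell marker Kit (0.44) in Tet2-/- cells. For the genotype in Th17 cells Dcn stood at 0.59 (adjusted p = 0.730). The part of such cells in the results was not tested. The Tet2 probeset read 8.08 ± 0.0789 in wild-type and 8.05 ± 0.104 (SD, n = 2) in Tet2-/- Th1 cells, and 8.52 ± 0.0131 and 8.40 ± 0.0346 in Th17 cells. Its place relative to the deletion is unknown here, so it does not check the genotypes.

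Sex-linked transcripts set the Th17 arrays apart from one another. Xist, expressed from the inactive X chromosome, read 4.83 to 5.11 on the Th1 arrays, 5.20 and 10.1 in wild-type Th17 and 8.62 and 11.3 in Tet2-/- Th17 cells. Eif2s3y, Kdm5d and Uty, all Y-linked, averaged 7.94 to 8.24 on the Th1 arrays, 8.80 and 7.82 in wild-type Th17 and 8.71 and 4.85 in Tet2-/- Th17 cells. Both measures point to a different mix of male and female cells in the 2 cultures of each Th17 group. Tet2-/- Th17 replicate 2 had both the highest Xist and the lowest Y-linked level. Xist was low on every Th1 array and high on all Th17 arrays but wild-type replicate 1. The mix of male and female cells can therefore not be fully told apart from cell type or, within Th17 cells, from genotype. The genotype differences of Il24 and Il10 in Th17 cells are also given without Tet2-/- Th17 replicate 2.

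Il24 was high in Th1 cells and low in Th17 cells, and within each cell type it read lower without Tet2. The 2 wild-type Th1 arrays read 9.59 and 9.58 log2 units, and the 2 Tet2-/- Th1 arrays 8.79 and 8.72. Wild-type Th17 arrays read 6.77 and 6.99, and Tet2-/- Th17 arrays 6.69 and 6.22. The 4 groups therefore stood in the order wild-type Th1, Tet2-/- Th1, wild-type Th17 and Tet2-/- Th17, with no overlap between neighbours, as the plot of array levels shows. In such bulk cultures, fewer cells that express a gene and less RNA per cell cannot be told apart.

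In Th1 cells Il24 went from 9.58 ± 0.00584 (SD, n = 2) in wild-type to 8.75 ± 0.0503 in Tet2-/- cells. The log2 difference was -0.83 (SE 0.15), which is 1.78-fold, or 56.1% of the wild-type level on this scale. The nearest arrays of the 2 genotypes lay 0.79 apart. Of all 19938 genes, 3 had a more negative difference in Th1 cells, beside a median of 0.01 over all genes. Arrays of the genotypes did not overlap, in the lower direction, for 14.4% of all genes, which is read only as the background of that count.

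In Th17 cells Il24 read 6.88 ± 0.155 in wild-type and 6.46 ± 0.333 (SD, n = 2) in Tet2-/- cultures. The log2 difference was -0.42 (SE 0.15), or 1.34-fold, and 83 genes had a more negative one. The nearest arrays were only 0.0721 apart, less than the SD within either group. The background of non-overlap in this direction was 13.3%. Without Tet2-/- Th17 replicate 2 the difference was -0.18, and without replicate 1 of that group it was -0.65. Without wild-type Th17 replicate 2 it was -0.31.
The lowest array of the 4 was Tet2-/- Th17 replicate 2, which also stood apart in Xist and the Y-linked genes. In a fit with each array's Y-linked mean as covariate, the Th17 difference was -0.26 and the Th1 difference -0.82.

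Between cell types the gap in Il24 was wider than between genotypes. Wild-type Th17 cells read 2.71 log2 units below wild-type Th1 cells (difference -2.71, SE 0.15, 6.54-fold), and the nearest arrays lay 2.60 apart. Only 9 genes had a more negative difference in that comparison. In Tet2-/- cells the gap was -2.29 (SE 0.15, 4.90-fold), with 2.02 between the nearest arrays and 14 genes more negative. The background of non-overlap in this direction was 26.7% in wild-type and 27.6% in Tet2-/- cells. The genotype difference in Th17 minus that in Th1 cells came to 0.42 (SE 0.21), given as a description.

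**Figure D1:**
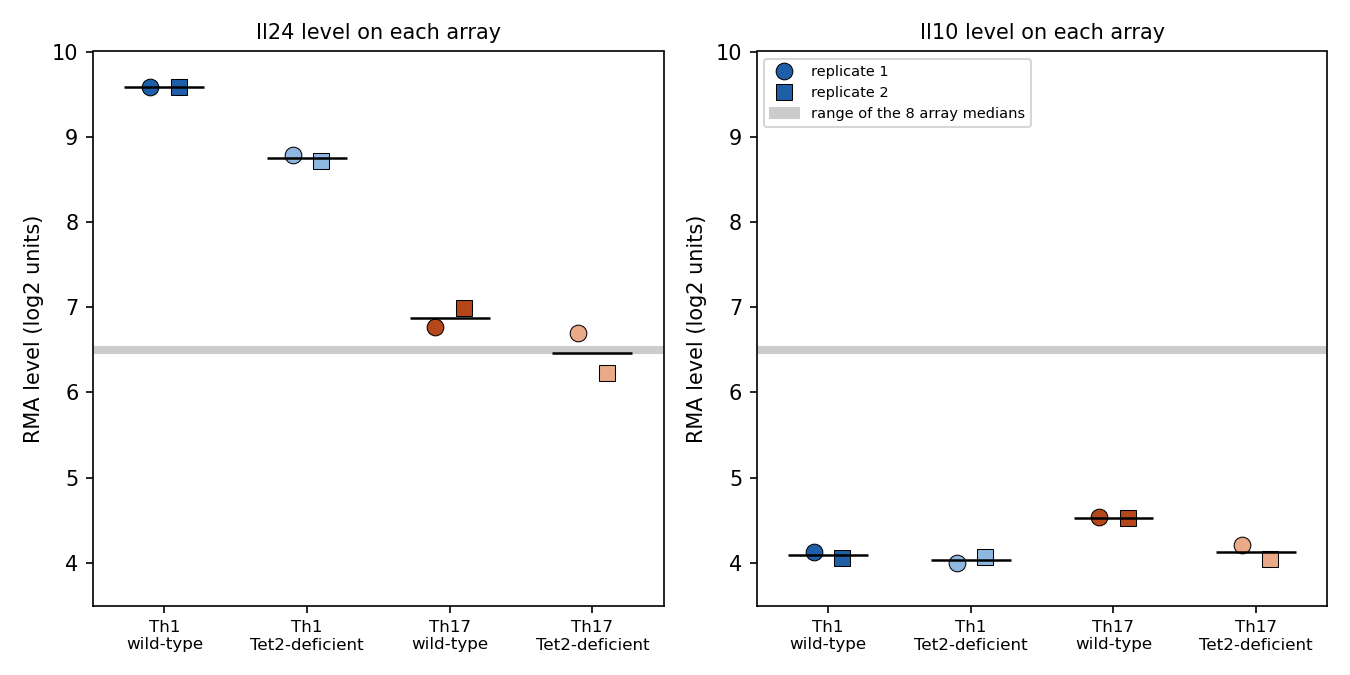
Levels of Il24 (left) and Il10 (right) on each array in log2 units, by group, with circles for replicate 1, squares for replicate 2, a bar for the group mean and a grey band for the range of the 8 array medians. Il24 runs from 9.59 on a wild-type Th1 array to 6.22 on a Tet2-/- Th17 array, while no Il10 value exceeds 4.54 and all lie under the band.

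Il10 read low on every array, and its highest values came from wild-type Th17 cells. The wild-type Th1 arrays read 4.12 and 4.06 log2 units and the Tet2-/- Th1 arrays 4.0003 and 4.07. Wild-type Th17 arrays read 4.54 and 4.53, against 4.21 and 4.05 in Tet2-/- Th17 cells. Only wild-type Th17 cells stood apart, and 13.3% of all genes likewise read lower without overlap in Tet2-/- than in wild-type Th17 cells. The other 3 groups overlapped with one another, and the whole span over 8 arrays was 0.53 log2 units.

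As means, Il10 was 4.53 ± 0.0070 in wild-type and 4.13 ± 0.112 (SD, n = 2) in Tet2-/- Th17 cells. The log2 difference was -0.40 (SE 0.11), or 75.6% of the wild-type level, and 98 genes had a more negative one. Without Tet2-/- Th17 replicate 2 the Il10 difference was -0.32. In Th1 cells the means were 4.09 ± 0.0468 and 4.04 ± 0.0527, a difference of -0.05 (SE 0.11) that lay within the overlap of the arrays. Th17 minus Th1 was 0.44 (SE 0.11) in wild-type cells, where the arrays did not overlap, as held in that direction for 25.2% of all genes. It was 0.09 (SE 0.11) in Tet2-/- cells, where they did.

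These Il10 readings do not show that the gene was expressed. Olfactory receptor genes, which T cells are not expected to use, were taken as a rough reference for probesets with little transcript. The 1027 of them had mean levels with a median of 5.29 and quartiles of 4.69 and 5.89. Il10, with a mean of 4.20 over the 8 arrays, lay above 10.4% of them, and Il24, with a mean of 7.92, above 99.8%. The Th1 arrays raise that Il24 mean. On the Th17 arrays Il24 read 6.22 to 6.99, above the upper quartile of this reference but near the array medians of 6.47 to 6.53. Probesets differ in their own baseline, so this places the readings only roughly.

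None of the family's other measured ligands or receptors passed the test in any comparison. Of 6 other ligand genes listed 4 were measured, and Il22 and Ifnl3 were not analysed here. Il19 read 5.66 to 5.88 and Il20 5.30 to 5.51 as group means. Iltifb, a mouse copy of Il22, read 4.53 to 4.87, and its probes may not tell it from its near-identical copy. Ifnl2, an interferon-λ gene, read 8.42 to 8.79. None of the 4 passed limma's test with Benjamini-Hochberg adjustment in any comparison. In Th1 cells 2 had an unadjusted p under 0.05, Iltifb at -0.35 and Ifnl2 at -0.33 (adjusted p = 0.824 for both). No ligand had one in the Th17 genotype comparison, and between cell types only Ifnl2 did, in wild-type samples (-0.34, adjusted p = 0.120). The median genotype difference of the 4 was -0.13 in Th1 and 0.01 in Th17 cells, beside 0.01 and 0.02 over all genes. Over all genes 0.00502% were called for the genotype in Th1 cells and 0% in Th17 cells, where 1145 and 848 genes had an unadjusted p under 0.05.

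All 7 receptor genes were measured, and none passed limma's test in any comparison. For the genotype that test called 0.00502% of all genes in Th1 and 0% in Th17 cells. Of the 7 receptors, 0 had an unadjusted p under 0.05 for the genotype in either cell type. Between cell types 3 did in wild-type and 2 in Tet2-/- cells, beside 4862 and 4880 of all 19938 genes. Il10ra, the ligand-binding chain for IL-10, read 9.02 ± 0.0257 in wild-type Th1 and 8.47 ± 0.416 (SD, n = 2) in wild-type Th17 cells, a difference of -0.55 (SE 0.21, adjusted p = 0.124). The shared chain Il10rb read 8.64 ± 0.310 and 9.02 ± 0.235 in the same groups (0.38, SE 0.17, adjusted p = 0.179). The chains through which IL-24 signals were Il20rb at 7.61 to 7.84, Il22ra1 at 6.47 to 6.72 and Il20ra at 4.88 to 5.23 over the groups. Il22ra2, a soluble receptor for IL-22, read 4.92 to 5.22, and Ifnlr1 5.98 to 6.24.

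Among the signalling genes 6 were analysed. Jak1, the kinase shared by these receptors, was called higher in Th17 than Th1 cells in both genotypes. It read 10.5 ± 0.0488 in wild-type Th1 and 11.0 ± 0.145 (SD, n = 2) in wild-type Th17 cells (0.51, SE 0.13, adjusted p = 0.0276), with 0.77 (adjusted p = 0.00191) in Tet2-/- cells. The wild-type call ended without wild-type Th17 replicate 2, either wild-type Th1 array or either Tet2-/- Th17 array, with only the arrays compared and with the Y-linked mean as covariate (adjusted p up to 0.230 over all alternatives). It also ended with the replicate number as a block. Stat3, the main transcription factor downstream, read 10.1 to 10.3 in all groups and was not called. Socs3, its feedback inhibitor, read 7.94 to 8.30 and was not called. For the genotype 0 of the 6 were called, and 0 had an unadjusted p under 0.05, in either cell type. Of all genes, 0.00502% were called for the genotype in Th1 and 0% in Th17 cells. Over all genes 5.3% were called higher and 3.17% lower in Th17 than Th1 cells among wild-type samples, and 7.14% higher and 3.29% lower among Tet2-/- samples.

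All 8 genes known to respond to IL-10, mostly from work in macrophages, were measured. Etv3, a repressor induced by IL-10, was higher in Th17 cells (0.94, SE 0.11, adjusted p = 0.000227 in wild-type and 0.46, adjusted p = 0.0211 in Tet2-/- cells). Nfil3, a transcription factor that also bears on Il10 itself, was lower there (-0.71, adjusted p = 0.00716, and -0.65, adjusted p = 0.00922). The other 6 did not pass in either genotype. For the effect of Tet2 limma called 0 of the 8, beside 0.00502% of all genes in Th1 and 0% in Th17 cells. In Th1 cells 2 had an unadjusted p under 0.05, Etv3 at 0.31 and Zfp36, which destabilises cytokine mRNA, at 0.30, and in Th17 cells 2 did, Sbno2 at 0.39 and Zfp36 at 0.30. In Tet2-/- cells the Etv3 call ended without any single Tet2-/- array, with quantile normalization again and with the Y-linked mean as covariate (adjusted p up to 0.167 over all alternatives, the highest with a pair of arrays left out). In wild-type cells Nfil3 did not pass without wild-type Th17 replicate 1 (adjusted p up to 0.0993 over all alternatives). In Tet2-/- cells it did not pass without Tet2-/- Th17 replicate 1 or either Tet2-/- Th1 array (adjusted p up to 0.118).

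Among known regulators of Il10 or Il24, several separated Th1 from Th17 cells. None passed the test for the genotype, which called 0.00502% of all genes in Th1 and 0% in Th17 cells. All 21 were measured: 5 were higher and 3 lower in wild-type Th17 than Th1 cells, and 5 higher and 4 lower in Tet2-/- cells. Of all genes, 5.3% were called higher and 3.17% lower in wild-type, with 7.14% and 3.29% in Tet2-/- cells. Maf, an activator of Il10 in several helper cell types, read 6.58 and 6.67 in wild-type Th1 and 10.0 and 10.5 in wild-type Th17 cells (3.65, SE 0.24, 12.6-fold, adjusted p = 1.48e-06). In Tet2-/- cells it read 6.51 and 6.91 in Th1 and 10.6 and 9.83 in Th17 cultures (3.52, adjusted p = 2.09e-06). Maf was high on all 4 Th17 arrays, and Il10 read 4.05 to 4.54 there. The median of the 21 was 0.06 in wild-type and 0.15 in Tet2-/- cells, beside -0.01 over all genes in both.

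Rora, a lineage factor of Th17 cells, was higher there by 2.13 (SE 0.13, adjusted p = 1.21e-06), Ikzf3 by 1.68 and Ahr, a ligand-activated inducer of Il10, by 1.66. Ets1 was higher by 1.00 (adjusted p = 0.000561) and was named after its values were seen. In the other direction, Tbx21, the lineage factor of Th1 cells, was lower in Th17 cells by 2.56 (difference -2.56, SE 0.16, adjusted p = 1.13e-06). Eomes, its relative, stood at -1.31 (adjusted p = 7.67e-05). Gata3 was called in Tet2-/- cells only (-0.59, adjusted p = 0.0336, against -0.17, adjusted p = 0.560, in wild-type cells). The difference between those 2 values was not called by limma (adjusted p = 0.999), and Gata3 lost its call without any single Tet2-/- array (adjusted p up to 0.246).

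Prdm1, which encodes the repressor Blimp-1 and can activate Il10 in T cells, had the smallest unadjusted p for the genotype in Th1 cells among the regulators. Its wild-type Th1 arrays read 7.48 and 7.53 and its Tet2-/- Th1 arrays 6.73 and 6.74. Its Th17 arrays read 5.89 and 5.84 in wild-type and 5.97 and 6.23 in Tet2-/- cells. The genotype difference was -0.77 (SE 0.11, adjusted p = 0.176) in Th1 and 0.23 (SE 0.11, adjusted p = 0.999) in Th17 cells, and the 2 differed by 1.01 (SE 0.16, adjusted p = 0.194). None of these passed limma's test. Over all genes 0% were called for that difference of differences, with an unadjusted p under 0.05 for 908. Th17 minus Th1 was -1.64 (adjusted p = 2.90e-06) for Prdm1 in wild-type and -0.64 (adjusted p = 0.00369) in Tet2-/- cells. The latter did not pass without Tet2-/- Th17 replicate 1 (adjusted p = 0.0620).

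For the genotype, limma called 0 of 21 regulators in either cell type, beside 0.00502% of all genes in Th1 and 0% in Th17 cells. An unadjusted p under 0.05 was reached by 2 in Th1 cells, Prdm1 and Ikzf3 (0.41, adjusted p = 0.824), and by 2 in Th17 cells. These were Tbx21 at -0.54 (SE 0.16, adjusted p = 0.764) and Rora at 0.32 (adjusted p = 0.999). Maf differed by 0.08 in Th1 and -0.05 in Th17 cells, beside the -0.05 and -0.40 of Il10 and the -0.83 and -0.42 of Il24. Whether Maf acts on either gene in these cells was not tested. The median genotype difference of the 21 was 0.08 in Th1 and 0.00 in Th17 cells.

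**Figure D2:**
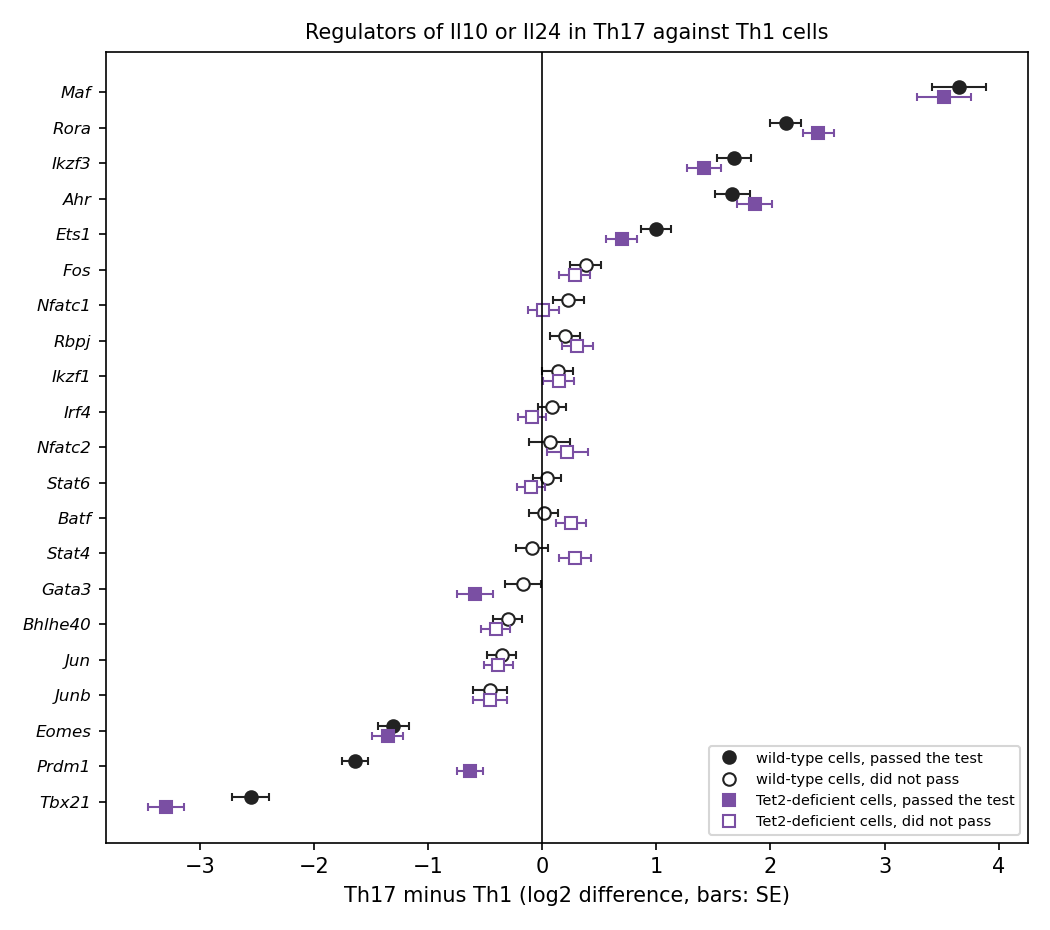
Log2 difference, Th17 minus Th1, of the 21 regulators in wild-type (circles) and Tet2-/- cells (squares), with bars for the SE and filled symbols for genes that passed limma's test at an adjusted p under 0.05. Maf, Rora, Ikzf3, Ahr and Ets1 lie to the right in both genotypes, and Tbx21, Prdm1 and Eomes to the left.

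Genes associated with Tr1 cells, which make IL-10 under IL-27, split in both directions. Of these 15 were analysed. In wild-type Th17 against Th1 cells 5 were higher and 7 lower, and in Tet2-/- cells 4 were higher and 7 lower. The shares over all genes were 5.3% higher and 3.17% lower in wild-type, and 7.14% and 3.29% in Tet2-/- cells. Nt5e, the ectoenzyme CD73, was higher in wild-type Th17 cells by 2.35 (SE 0.16, adjusted p = 2.04e-06) and the cytokine Il21 by 1.70 (adjusted p = 6.46e-05). The IL-27 receptor gene Il27ra was higher by 1.13 (adjusted p = 0.000954), the costimulatory receptor Icos by 0.90 and Ctla4, named after its values were seen, by 1.26. Il27ra was not called in Tet2-/- cells (0.52, adjusted p = 0.0636), and limma did not call the difference between these values (adjusted p = 0.999). In the other direction were Gzmb, the cytotoxic protease, at -4.84 (SE 0.20, adjusted p = 3.04e-08) and Il12rb2, the IL-12 receptor chain, at -1.65. The inhibitory receptor Lag3 stood at -1.20 and Entpd1, the ectoenzyme CD39, at -0.77. The median of the 15 was -0.55 in wild-type and -0.52 in Tet2-/- cells.

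Limma called 0 of these 15 for the genotype in either cell type, beside 0.00502% of all genes in Th1 and 0% in Th17 cells. An unadjusted p under 0.05 was reached by 2 of the 15 in Th1 and 4 in Th17 cells. In Th1 cells these were Il21 at -0.56 and Il27ra at 0.40 (adjusted p = 0.824 and 0.833). In Th17 cells they were Il21 at -0.42, Icos at -0.31, Il12rb2 at 0.36 and the adhesion receptor Cd226 at -0.54, with adjusted p of 0.953 to 0.999. Limma called 1689 of all 19938 genes between cell types in wild-type and 2078 in Tet2-/- samples. Over all 72 measured genes of the lists, 26 were called between cell types in wild-type and 25 in Tet2-/- samples. Without Tet2-/- Th17 replicate 1 the latter count was 16.

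None of the measured genes around the pair passed the test for the genotype, which called 0.00502% of all genes in Th1 and 0% in Th17 cells. In the RefSeq gene order, the 10 entries on either side and the 3 between them held 14 other genes with a probeset. Limma called 0 of the 14 for the genotype in either cell type (adjusted p of at least 0.824), with an unadjusted p under 0.05 for 1 in Th1 and 2 in Th17 cells. Differences ran from -0.35 to 0.32 in Th1 cells, with a median of 0.05, and from -0.10 to 0.33 in Th17 cells, with a median of 0.03. The members' own values in Th1 cells were -0.83 for Il24 and -0.05 for Il10, and in Th17 cells -0.42 and -0.40.

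Next to Il24, the IgM receptor gene Fcmr differed by 0.07 in Th1 and 0.13 in Th17 cells, and Pigr, which carries antibodies across epithelia, by -0.26 and -0.04. Between the members, Il20 differed by 0.07 and -0.01 and Il19 by 0.07 and 0.08. Beyond Il10, Mapkapk2, a stress kinase, read 10.3 to 10.5 and differed by 0.00 and 0.01. Its neighbours Dyrk3 and Eif2d differed by 0.23 and 0.13 in Th1 cells and by 0.02 and 0.33 in Th17 cells. Ikbke, an innate immune kinase, differed by 0.32 and 0.33 (adjusted p = 0.824 and 0.999). The remaining genotype differences in Th1 and Th17 cells were 0.04 and 0.07 for Rassf5, -0.07 and -0.10 for Fcamr, 0.18 and -0.02 for Pfkfb2, and -0.11 and -0.01 for Yod1. They were -0.01 and 0.05 for AA986860 and -0.35 and 0.22 for the pseudogene C4bp-ps1.

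Between cell types 3 of the 14 neighbours were called, all higher in wild-type Th17 cells, where 5.3% of all genes were called higher. These were Pfkfb2, a regulator of glycolysis, at 0.59 (adjusted p = 0.0107), Ikbke at 0.58 (adjusted p = 0.0114) and Rassf5, an adaptor in T cell adhesion, at 0.54 (adjusted p = 0.0285). In Tet2-/- cells Rassf5 at 0.58 and Ikbke at 0.60 were called again. Each is the opposite direction to Il24 (-2.71 and -2.29). The wild-type call of Rassf5 ended without any single wild-type array and with quantile normalization again, that of Pfkfb2 without replicate 2 of either wild-type group, and that of Ikbke without wild-type Th17 replicate 2 (adjusted p up to 0.160, 0.0977 and 0.0936).
In Tet2-/- cells both calls ended without Tet2-/- Th17 replicate 1 or without Tet2-/- Th1 replicate 2, and that of Rassf5 also without Tet2-/- Th1 replicate 1 (adjusted p up to 0.218 for Rassf5 and 0.122 for Ikbke).

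**Figure D3:**
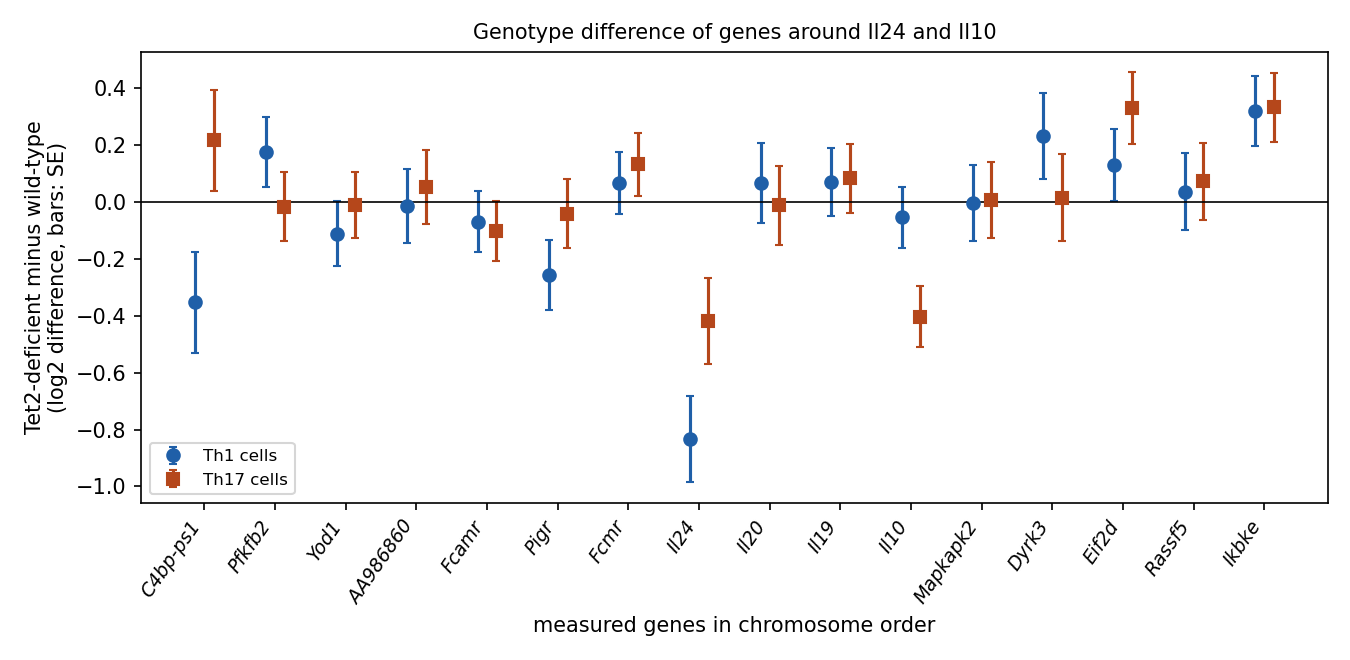
Log2 difference between Tet2-/- and wild-type cells for the 16 measured genes around Il24 and Il10 in chromosome order, in Th1 (circles) and Th17 cells (squares), with bars for the SE. Il24 lies at -0.83 and -0.42 and Il10 at -0.05 and -0.40, while the 14 other genes lie between -0.35 and 0.33.

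The genes whose levels followed Il24 most closely included the cytokine genes Il3 and Ifng. Among 1016 genes that spanned at least 1 log2 unit, the 5 with the highest Pearson correlation over the 8 arrays were Il3 (0.988), Ifng (0.987), Fasl (0.986), Pdcd1lg2 (0.983) and Perp (0.979). The 8 arrays share the gap between Th1 and Th17 cells, which carries most of each value, and the genes were picked for it, so no test is given. Il3, a growth factor of the chromosome 11 cytokine cluster, read 8.13 and 8.30 in wild-type Th1 and 7.37 and 6.79 in Tet2-/- Th1 cells. It lay between 4.60 and 4.96 on all Th17 arrays. Ifng, which encodes interferon-γ, read 11.6 and 11.9 in wild-type Th1, 10.4 and 10.2 in Tet2-/- Th1 and 6.00 to 6.07 in Th17 cells.

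In Th1 cells the genotype difference of these 5 was -1.13 for Il3, -1.42 for Ifng, -0.31 for Fasl, the death ligand, -0.46 for Pdcd1lg2, the ligand PD-L2, and -0.26 for the p53 target Perp, beside -0.83 for Il24. In Th17 cells it was -0.10, -0.01, -0.27, -0.10 and 0.01, beside -0.42 for Il24. Il3, Ifng, Fasl and Pdcd1lg2 read under the array median on every Th17 array, and whether such low levels hide a fall was not tested.

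The promoters of the pair of genes most like Il24, from the same RefSeq table and build, are shown for the CG dinucleotides they hold, in capitals, since Tet2 acts on such sites when methylated.
Il3: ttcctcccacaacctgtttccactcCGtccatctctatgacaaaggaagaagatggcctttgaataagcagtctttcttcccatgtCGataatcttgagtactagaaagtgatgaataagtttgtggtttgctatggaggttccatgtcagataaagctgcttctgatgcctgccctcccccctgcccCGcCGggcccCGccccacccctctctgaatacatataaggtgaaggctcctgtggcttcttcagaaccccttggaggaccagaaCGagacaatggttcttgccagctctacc
Ifng: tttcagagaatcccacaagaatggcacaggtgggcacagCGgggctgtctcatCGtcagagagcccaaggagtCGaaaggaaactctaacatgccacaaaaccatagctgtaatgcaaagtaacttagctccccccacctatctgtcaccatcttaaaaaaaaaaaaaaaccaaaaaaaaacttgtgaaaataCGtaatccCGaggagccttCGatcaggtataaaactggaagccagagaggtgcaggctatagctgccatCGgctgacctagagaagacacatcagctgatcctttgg
Il3 (chr11:54267230-54267529, minus strand) held 6 CG dinucleotides and Ifng (chr10:118440796-118441095, plus strand) held 7, close to the table's median of 7. TTCNNNGAA occurred once in Ifng and not in Il3, and TGANTCA in neither.

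Il10 had a different set of most similar genes, drawn from 6604 genes that spanned at least as much as Il10 (0.53 log2 units). They were Fnip1 (0.995), a partner of folliculin, Zbtb18 (0.931), a transcriptional repressor, Emp1 (0.925), a membrane protein, Znhit6 (0.923), a factor in snoRNP assembly, and Myof (0.918), with 2 small RNA genes ranked among them and not named. Fnip1 read 10.2 and 10.2 in wild-type Th17 cells, 9.89 and 9.67 in Tet2-/- Th17 cells and 9.67 to 9.75 in Th1 cells. The form is that of Il10, highest in wild-type Th17 cells, at a higher level on its own probeset. Its genotype difference in Th17 cells was -0.45, against -0.37 for Zbtb18, -0.88 for Emp1, -0.31 for Znhit6, -0.50 for Myof and -0.40 for Il10. These genes were picked for their likeness to readings that do not show Il10 to be expressed, so no test is given. Il24 and Il10 themselves correlated at -0.52 over the 8 arrays, a description over arrays that share the gap between cell types.

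**Figure D4:**
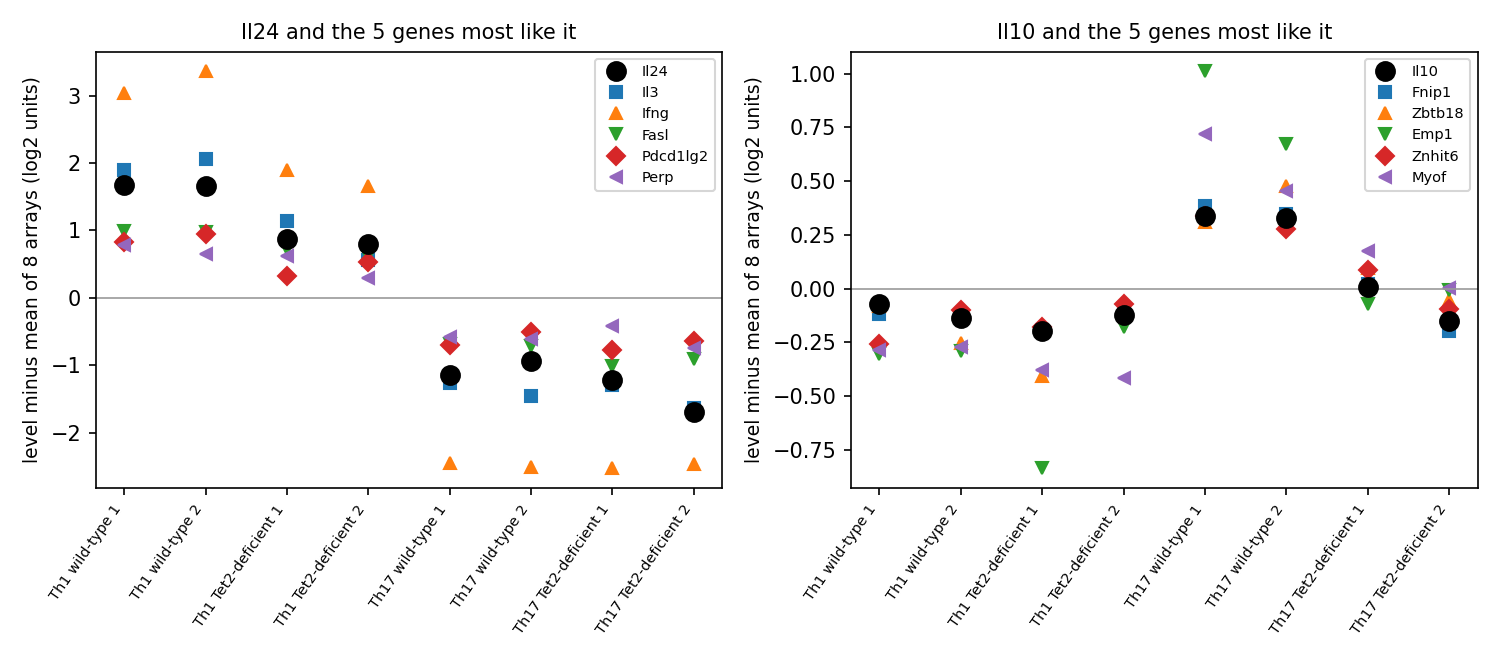
Level of Il24 (left) and Il10 (right) and of the 5 genes most like each, minus each gene's mean over the 8 arrays, in log2 units, by array. The Il24 set is high on the 4 Th1 arrays with a step down in Tet2-/- Th1 cells, and the Il10 set is highest on the wild-type Th17 arrays.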

How the data were processed

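The deposited values are log2 values, 1 per probeset and array, and per the submitters' processing notes the authors used Partek and RMA to make them. Base, versions and filters are unstated, so a base of 2 is inferred from values between 2.71 and 14.1. Of 35556 probesets 21789 had 1 gene symbol, 1621 several and 12146 none listed in the platform annotation. The probeset with the highest mean stood for each of 19938 genes, and 19856 matched the RefSeq gene table (GRCm38.p6) by Entrez ID with 0 changed symbols.

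Limma 3.58.1 (R 4.3.3) estimated 4 group means from the 8 arrays, with an intensity trend in eBayes and 4 residual degrees of freedom. Its two-sided p-values received Benjamini-Hochberg adjustment across all 19938 genes, and an adjusted p under 0.05 was a call. SE comes from this fit, and SD is that of the 2 arrays of a group. The number of arrays limits the precision. The fit was tested on simulated data. The members, the 7 gene lists and the naming rule were chosen with earlier results of these data known. The rule took every ligand, receptor and locus neighbour, up to 4 genes per comparison and direction with the smallest p in the other lists, and the 5 genes most like each member.

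The same replicate numbers recur in the groups, but nothing in the labels says that they mark a shared animal or day. Alternatives were the replicate number as a block, each array left out, no intensity trend, only the arrays compared, another normalization or centring, dim genes left out, each array's Y-linked mean as covariate and every probeset tested. A crossed pairing and the removal of a pair of arrays were added after the data were seen.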

Additional observations from a re-analysis of the deposited data

How the results depend on the processing

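The 4 differences of Il24 kept their direction in every alternative run, from -0.87 to -0.80 for the genotype in Th1, -0.65 to -0.18 in Th17, -2.82 to -2.60 between cell types in wild-type and -2.53 to -2.06 in Tet2-/- cells. For Il10 the Th1 genotype difference turned from -0.05 to 0.0026 with quantile normalization again and was -0.0906 to -0.0161 with single arrays left out. Its Th17 difference was -0.48 to -0.32 with single arrays left out and -0.32 without the pair of arrays at the extremes of the Y-linked level. Its wild-type gap between cell types was 0.49 with quantile normalization. Dim genes left out dropped Il10 from the table, and no other probeset listed either member.

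Counts of called genes moved more. With single arrays left out they were 0 to 2 for the genotype in Th1, 0 to 9 in Th17, 0 to 4 for the difference between the 2, 667 to 1560 (1689 with all arrays) between cell types in wild-type and 815 to 2383 (2078) in Tet2-/- cells. For the lists they were 22 to 26 (26) and 16 to 26 (25). The lowest counts were without wild-type Th17 replicate 2 and Tet2-/- Th17 replicate 1, and the latter also gave the 9. Wild-type Th1 replicate 1 (1013) and each other Tet2-/- array (1003 to 1251) also moved their count by over 1.5 times. The Th1 genotype count of 1 became 0 with only the arrays compared or without the pair of Y-linked extremes, and 2 with every probeset tested. The Th17 count became 2 with dim genes left out. Without the pair, 808 and 975 genes were called between cell types. The cause was not tested.

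The replicate block gave 1411 and 1810 called genes between cell types, 25 and 25 list genes (Jak1 lost its wild-type call), and 1 and 0 for the genotypes. Deviations of same-numbered arrays correlated at -0.19 to -0.03, so the numbers were not taken to pair the arrays. The crossed replicate block, chosen after seeing the data, gave 1841 genes in wild-type cells. Of 51 list gene calls 35 held in every alternative run, and 0 turned.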
